A study of Mus musculus with 14 samples.

Results

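The 39 genes described here encode proteins of the lysosome: cathepsins and other proteases, hydrolases of sugars and lipids, proteins of the lysosomal membrane, and progranulin. They were given as a list of symbols, and all 39 were found among the 22485 gene symbols of the deposited gene table. Their RNA was followed through enzymatic dissociation of mouse hippocampus in CA1, CA3 and the dentate gyrus (DG). The list was divided by what is known of the genes' cell types. Both the list and its division were set with earlier results of these data already known. A group of 5 is held to be much higher in microglia than in other brain cells (Ctss, Cd68, Ctsc, Ctsh and Ctsz), and the other 34 are found in all cells to some degree and are called broad below.

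Lysosomes are acidic organelles in which hydrolases break down protein, glycan and lipid delivered by endocytosis, phagocytosis and autophagy. Every cell needs them, so neurons and glia share most of these genes. Microglia, the resident phagocytes of the brain, carry many lysosomes and add some proteases of their own, of which cathepsin S is the best known.

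All groups were wild-type tissue of the strain C57BL/6. Control tissue was homogenised directly. For dissociation, tissue spent 75 min at room temperature in pronase, a protease mixture, at 1 mg/ml, and was then vortexed, spun and pipetted apart in medium with 1% FBS. CA1 was sequenced in 3 control and 3 dissociated libraries, and CA3 and DG each in 2 per treatment. In the authors' sample table every library has the same mouse (1 in all), sequencing job and date. The library names carry one prefix for control and another for dissociated tissue, whose meaning is not given. The p-values therefore cover only how these tissue samples vary, which may be technical, and no batch could be separated. The mouse's age was not used here.

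Depth was uneven between treatments. Control libraries held 1285654 to 6646655 estimated counts, and dissociated libraries held 65887 to 4782767. Libraries under 500000 counts, all 3 of them dissociated, were CA1 replicates 2 and 3 (135065 and 300812) and DG replicate 3 (65887), in which 30 of the 39 genes had fewer than 10 counts. The labelled regions were compared with their markers, and 3 libraries went against their labels. Summed TPM of 5 CA1 markers was 1144 to 1554 in CA1 control and 707.4 and 913.3 in CA1 dissociated replicates 2 and 1, but 33.23 in the library labelled CA1 dissociated replicate 3. It was 1228 in the library labelled CA3 control replicate 1 and 704.2 in the one labelled CA3 dissociated replicate 1, against 390.4 and 51.6 in CA3 control and dissociated replicate 4. The DG libraries had 216.7 to 896.5 summed TPM of 6 granule cell markers, and the other libraries 9.669 to 61.01. Called genes among the 39 are given with and without those 3 libraries below. The 5 markers listed for CA3 did not separate the regions: their summed TPM was 536.9 and 928.2 in DG control against 215.1 and 466.4 in CA3 control, so the labels of CA3 could not be checked by them.

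Levels between genes were compared as TPM, which corrects for transcript length. In control tissue the lysosomal genes spanned a wide range. Psap, the precursor of the saposins that help lipid hydrolases reach their substrates, was highest at 963.1 ± 104.7 TPM (mean ± SD, n = 7 here and for the other control TPM). It supplied 25.1% to 30.6% of the summed TPM of the 39 genes in control libraries. Its lowest control library, at 887.7 TPM, lay above the highest library of the next gene, Gaa, at 396.5 TPM.

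Gaa, the acid alpha-glucosidase that digests glycogen, had 291.3 ± 115.9 TPM. Its libraries overlapped those of Ctsd, which encodes the aspartic protease cathepsin D (256.7 ± 44.78), Laptm4a, a small membrane protein (215.4 ± 29.27), and Ctsb, a cysteine cathepsin (208.5 ± 36.13). The order among these neighbours is therefore within the spread between libraries. At the low end Manba, the beta-mannosidase, had 6.01 ± 3.84 TPM, and Sgsh, the heparan sulfate sulfamidase, had 2.14 ± 1.06 TPM, and these also overlapped.

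The microglia-rich genes did not stand at 1 level. In control tissue Ctss, the tenth of the 39 in this order, had 80.43 ± 19.76 TPM and Ctsz, cathepsin Z, had 47.94 ± 4.586 TPM. Cd68, a heavily glycosylated membrane protein of phagocyte lysosomes, had 12.18 ± 7.238 TPM. Ctsh, cathepsin H, had 11.04 ± 3.48 TPM, and Ctsc, cathepsin C, which activates other proteases by trimming them, had 7.67 ± 2.91 TPM. The libraries of these last 3 genes overlapped.

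**Figure D1:**
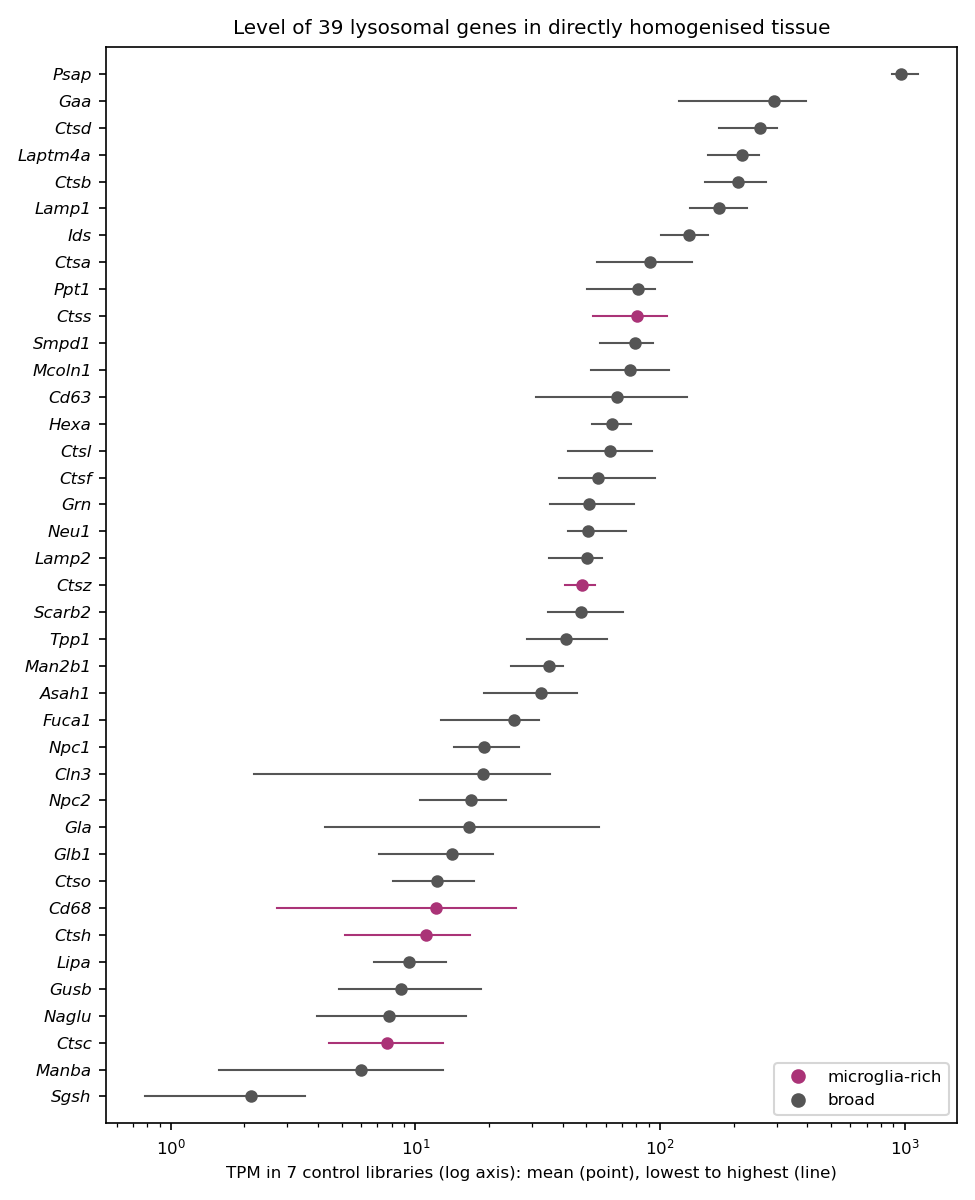
TPM of the 39 lysosomal genes in the 7 control libraries on a log axis, with points at the mean and lines from the lowest to the highest library; colours mark the 5 microglia-rich and the 34 broad genes. Psap, at 963.1, stands clear of Gaa at 291.3, and the microglia-rich genes lie between 80.43 (Ctss) and 7.67 (Ctsc).

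Dissociation was tested over all regions with edgeR's quasi-likelihood test on the 14 libraries, with region as a covariate, and a gene was called when its Benjamini-Hochberg adjusted p over all 13063 genes tested was under 0.05. All 39 lysosomal genes passed the filter on low counts. Of these, 4 rose after dissociation and none fell: Ctss, Cd68, Ctsd and Npc2. That is 10.3% of the list, where 0.773% of all genes tested were called in either direction, 0.727% higher and 0.0459% lower. At an unadjusted p under 0.05, 11 of the 39 were higher and 0 lower, against 6.11% and 6.31% of all genes.

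The median log2 fold change of the 39 was 0.41, and of all genes tested -0.11. A positive fold change was found for 31 of the 39 (79.5%) and for 41.9% of all genes; the number was 34 of 39 with the scaling of the RLE method and 17 of 39 on the log2(TPM + 1) scale, on which the median of all genes was -0.64 and of the 39 was -0.19. Without the 3 libraries against their region labels, 26 of the 39 were positive. The sign then turned for 7 genes that were not called, most for Lipa, the acid lipase, from 0.37 to -0.43. These shares and the share of calls describe a list chosen with earlier results of these data known, and were not tested as a set.

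All 5 microglia-rich genes were on the positive side (median 1.47), and 2 of the 5 were called. The 34 broad genes had a median of 0.32 (0.19 without the 3 libraries against their labels), 26 of them were positive and 2 were called. A wider reading of microglia-rich, which adds Ctsb, Ctsd, Man2b1, Npc2 and Grn, gave 10 genes with a median of 0.98 that held all 4 calls. The remaining 29 had a median of 0.19 and no call, with 4 of them higher and 0 lower at an unadjusted p under 0.05 in edgeR. The wider group was set with earlier results of these data known, and it adds the called genes Ctsd and Npc2. Where the calls fall is therefore no support for the division. In bulk tissue, a change in the number of cells of a type and a change in the RNA each cell holds cannot be told apart.

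**Figure D2:**
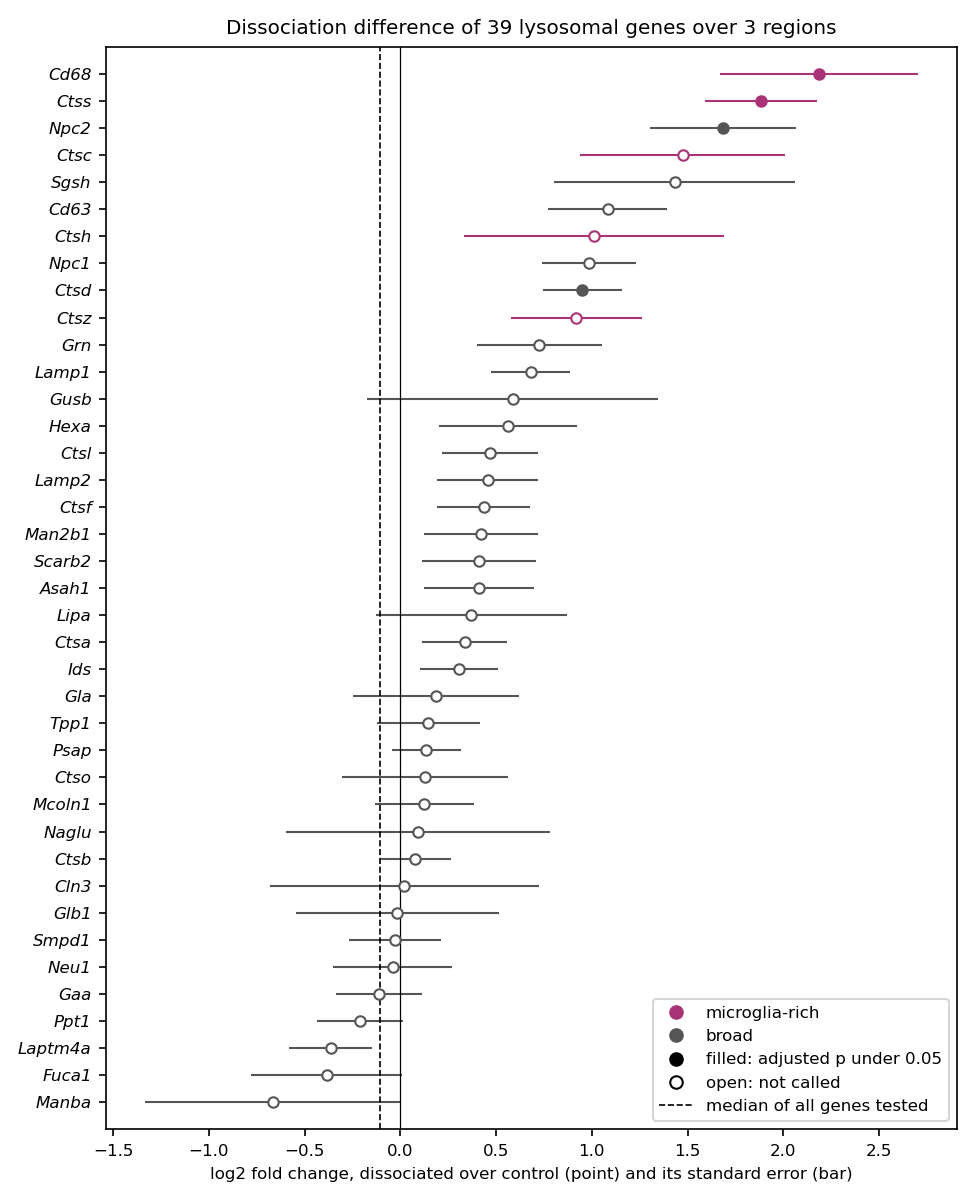
Log2 fold change of each of the 39 lysosomal genes, dissociated over control, over 3 regions, with its standard error from edgeR; filled points are called, colours mark microglia-rich and broad genes, and the dashed line is the median of all genes tested (-0.11). The called genes are Cd68, Ctss, Npc2 and Ctsd; Manba, at -0.67, is lowest.

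Among the cysteine cathepsins, the largest group of lysosomal proteases, all 8 had positive fold changes (median 0.69) and 1 was called. This was Ctss, which cuts the invariant chain of MHC class II and keeps its activity at neutral pH (chr3:95526786-95556403, plus strand, GRCm38). In CA1, Ctss had 50.09, 39.53 and 27.75 CPM (counts scaled to a common library size by TMM) in control replicates 1 to 3 and 145.7, 259.9 and 250.8 CPM in the dissociated ones. In CA3 it had 48.07 and 52.09 CPM in control and 141.5 and 189.6 CPM after dissociation.

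In DG, Ctss had 35.18 and 61.8 CPM in control, and 187.3 CPM in dissociated replicate 3 and 59.52 CPM in replicate 4. Control and dissociated libraries thus did not overlap in CA1 or CA3 and did overlap in DG, where 1 dissociated library was as low as the controls. Over all regions, control libraries averaged 44.93 ± 11.48 CPM and dissociated ones 176.3 ± 69.07 CPM (SD, n = 7 each). The log2 fold change was 1.88 ± 0.29 (SE) with an adjusted p of 0.00233 in edgeR. Without the 3 libraries that went against their region labels it was 1.83 with an adjusted p of 0.0198, and without the 3 libraries under 500000 counts it was 1.49 with an adjusted p of 0.0606, which ended the call.

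The other microglia-rich cathepsins were not called. Ctsc had 5.814 to 17.92 CPM in control, with a median of 7.162, and 9.047 to 88.9 CPM after dissociation, with a median of 15.61; its log2 fold change was 1.47 ± 0.53 (adjusted p 0.247, edgeR). CA1 dissociated replicate 2 held that 88.9 CPM, far above the next library at 28.1 CPM, and without it the log2 fold change was 0.90 (adjusted p 0.484). Ctsz had 22.83 to 35 CPM in control and 16.5 to 109.4 CPM after dissociation, with a log2 fold change of 0.92 ± 0.34 (adjusted p 0.259). Its groups overlapped only through the library labelled CA1 dissociated replicate 3 (16.5 CPM) and DG dissociated replicate 4 (23.14 CPM).

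Ctsh was the most uneven. It had 2.081 to 7.33 CPM in control, and after dissociation 22.15 CPM in CA1 replicate 1, 24.26 and 14.87 CPM in CA3, 3.3 CPM in CA1 replicate 3 and no count in CA1 replicate 2 and both DG libraries. A count of 0 allows up to 20.52 CPM in the first of these and 46.83 and 4.96 CPM in the DG replicates 3 and 4, so it says little. Its log2 fold change was 1.01 ± 0.68 (adjusted p 0.574, edgeR), and 0.19 without CA1 dissociated replicate 1.

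The broad cysteine cathepsins had smaller differences. Ctsb, which is also an abundant protease of neurons, had 453.8 ± 70.28 CPM in control and 490.8 ± 158.8 CPM after dissociation, with a log2 fold change of 0.08 ± 0.19. Ctsl, Ctsf and Ctso had log2 fold changes of 0.47 ± 0.25, 0.44 ± 0.24 and 0.13 ± 0.43. None of these was called.

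Of the other 3 proteases, Ctsd rose. Cathepsin D is the main aspartic protease of lysosomes and is made by all brain cells (chr7:142375911-142388038, minus strand, GRCm38). In CA1 Ctsd had 263.9, 226.1 and 197.4 CPM in control and 442.8, 594.9 and 478.5 CPM after dissociation. In CA3 it had 219 and 310.9 CPM in control and 413.7 and 599.6 CPM after dissociation.

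In DG, Ctsd had 277.8 and 167.6 CPM in control and 483.9 and 259.6 CPM after dissociation, so only DG dissociated replicate 4 fell within the range of the controls. The overall means were 237.5 ± 49.44 and 467.6 ± 116.1 CPM (SD, n = 7), and the log2 fold change was 0.95 ± 0.20 with an adjusted p of 0.0229 in edgeR. The call was lost without the 3 libraries against their labels (0.97, adjusted p 0.085) and without the shallow ones (0.78, adjusted p 0.189). It was kept in 6 of 14 fits that each left out 1 library (CA3 control 4, DG control 2, CA1 dissociated 1 or 3, CA3 dissociated 1, DG dissociated 4), with the adjusted p highest, at 0.105, without CA3 dissociated replicate 4. Ctsa, the protective protein of beta-galactosidase and neuraminidase, and Tpp1, a tripeptidyl peptidase, had log2 fold changes of 0.34 ± 0.22 and 0.15 ± 0.27 and were not called.

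Among the 9 membrane proteins, 8 had positive fold changes (median 0.46) and 1, Cd68, was called. Cd68 lies at chr11:69664213-69666153 on the minus strand (GRCm38). In CA1 it had 12.52, 5.625 and 3.133 CPM in control and 21.01, 54.71 and 29.7 CPM after dissociation. In CA3 it had 0.971 and 5.834 CPM in control and 12.75 and 39.05 CPM after dissociation.

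In DG, Cd68 had 7.33 and 5.283 CPM in control and 15.61 and 14.88 CPM after dissociation, the former resting on 1 count. It was the member whose dissociated libraries all lay above the controls in each of the 3 regions (1 of 39, 2.56%, against 0.597% of all genes). The means were 5.814 ± 3.611 and 26.81 ± 15.47 CPM (SD, n = 7), and the log2 fold change was 2.19 ± 0.52 with an adjusted p of 0.0453 in edgeR. The call was lost without the 3 libraries against their labels (2.07, adjusted p 0.107) and without the shallow ones (2.04, adjusted p 0.201). Of the 14 fits that each left out 1 library, 4 kept it (those without CA1 control 1, DG control 2, CA3 dissociated 1 or DG dissociated 4), and the adjusted p was highest, at 0.19, without CA3 dissociated replicate 4.

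Cd63, a tetraspanin of late endosomes and exosomes, had 10.29 to 46.91 CPM in control (median 21.13) and 34.19 to 78.04 CPM after dissociation (median 41.94). DG replicate 2 was the highest control library, and the dissociated CA3 replicate 4 (52.99 CPM) and DG replicate 3 (78.04 CPM, from 5 counts) exceeded it. The other dissociated libraries, at 34.19 to 46.2 CPM, exceeded the remaining controls, which reached 23.79 CPM. Its log2 fold change was 1.08 ± 0.31 (adjusted p 0.117, edgeR). Npc1, which exports cholesterol from lysosomes, had 0.99 ± 0.24 (adjusted p 0.0615), and Lamp1, an abundant glycoprotein of the lysosomal membrane, had 0.68 ± 0.21 (adjusted p 0.143). Neither passed the threshold.

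Lamp2, Scarb2, Mcoln1 and Cln3 had log2 fold changes of 0.46 ± 0.27, 0.41 ± 0.30, 0.13 ± 0.26 and 0.02 ± 0.70. Scarb2 carries glucocerebrosidase to the lysosome, and Mcoln1 is a calcium channel of its membrane. Laptm4a, the membrane protein with a negative fold change, had 122.8 to 214.2 CPM in control (median 164) and 82.66 to 225.7 CPM after dissociation (median 118.8). Its log2 fold change was -0.36 ± 0.22 (adjusted p 0.518, edgeR), and its highest dissociated library was CA1 replicate 2.

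Among the 6 lipid-handling genes, 4 had positive fold changes (median 0.25) and 1, Npc2, was called. Npc2 is the soluble cholesterol-binding partner of Npc1 (chr12:84754562-84773152, minus strand, GRCm38). In CA1 it had 33.54, 19.24 and 14.32 CPM in control and 46.81, 109.4 and 66 CPM after dissociation. In CA3 it had 17.48 and 25 CPM in control and 47.7 and 135.7 CPM after dissociation.

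In DG, Npc2 had 36.65 and 30.42 CPM in control, 202.9 CPM in dissociated replicate 3 and 24.8 CPM in replicate 4, so the dissociated DG libraries lay on both sides of the controls. The means were 25.24 ± 8.576 and 90.48 ± 62.84 CPM (SD, n = 7), and the log2 fold change was 1.69 ± 0.38 with an adjusted p of 0.0322 in edgeR. Within DG its log2 fold change was 1.22 with all libraries and -0.42 without the shallow ones, that is, without DG replicate 3. Over regions the call was lost without the shallow libraries (1.22, adjusted p 0.299) and without the 3 against their labels (1.70, adjusted p 0.0918). It was kept in 6 of 14 fits that each left out 1 library (CA1 control 1, DG control 2 or 3, CA1 dissociated 1, CA3 dissociated 1, DG dissociated 4), with the adjusted p highest, at 0.156, without CA3 dissociated replicate 4.

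The other lipid genes were not called. Psap had 1146 ± 203.8 CPM in control and 1259 ± 225.4 CPM after dissociation, with a log2 fold change of 0.14 ± 0.18. Asah1 and Smpd1, the acid ceramidase and acid sphingomyelinase, had 0.41 ± 0.29 and -0.03 ± 0.24. Lipa, the acid lipase, had 0.37 ± 0.50, and Ppt1, which removes fatty acids from proteins, had -0.21 ± 0.23. Grn, the secreted precursor of the granulins, had 0.73 ± 0.33 (adjusted p 0.369, edgeR).

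The 12 sugar hydrolases had the lowest median of the groups, 0.14, with 7 positive and none called; at an unadjusted p under 0.05 in edgeR, 1 was higher and 0 lower. Sgsh was the highest, with 1.667 to 6.884 CPM in control and 0 to 26.4 CPM after dissociation and a log2 fold change of 1.43 ± 0.63 (adjusted p 0.354). Manba and Fuca1, the alpha-fucosidase, were the lowest. Manba had 2.722 to 24.17 CPM in control and 0 to 20.52 CPM after dissociation (-0.67 ± 0.67; -0.27 without CA3 control replicate 4 and -0.41 without DG dissociated replicate 4). Fuca1 had 15.39 to 35.84 CPM and 6.508 to 46.83 CPM (-0.38 ± 0.39; -0.69 and -0.17 without CA3 dissociated replicate 1 and 4). These 3 genes overlapped between treatments, and each had 8 counts or fewer in some dissociated libraries.

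Hexa, the alpha subunit of beta-hexosaminidase, had a log2 fold change of 0.56 ± 0.36. Gaa had 423.5 ± 145.5 CPM in control and 376.2 ± 170.5 CPM after dissociation, and its fold change, -0.11 ± 0.23, was under its standard error.

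**Figure D3:**
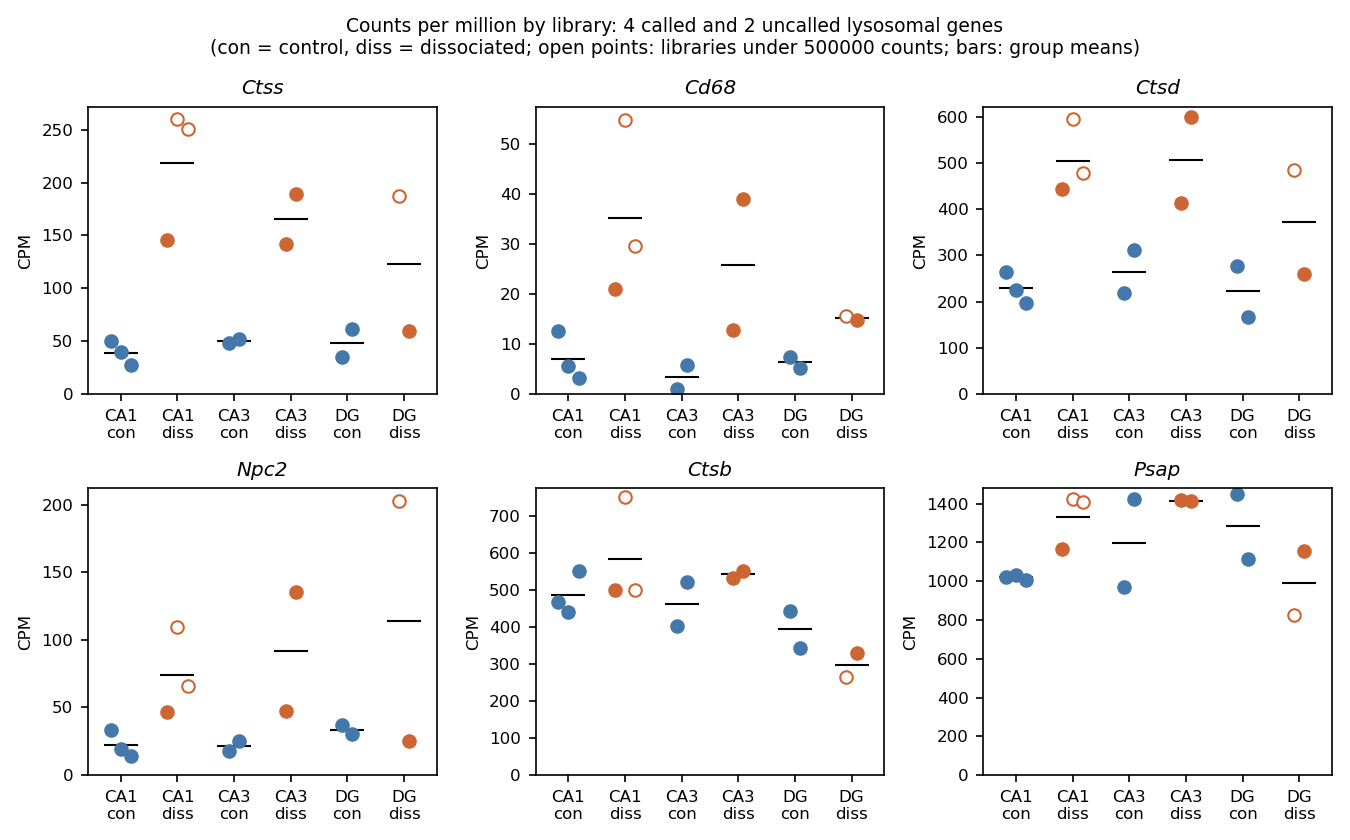
CPM by library of the 4 called genes and of Ctsb and Psap, which were not called, by region and treatment; open points are libraries under 500000 counts and bars are group means. Every dissociated library lies above every control library of its region for Cd68, and in CA1 and CA3 for Ctss, Ctsd and Npc2; for those 3 genes DG dissociated replicate 4 lies within or below the DG controls.

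Cell type markers moved with the same comparison. The marker calls here and in the paragraph on other cell types are from the fit with all 14 libraries. Over all genes, that fit called 95 higher, against 31 without the 3 libraries against their region markers and 14 without the shallow ones. How many marker calls remain in those fits is not given. Of 18 microglia markers, 18 had positive fold changes (median 1.70) and 8 were called, among them Csf1r, the receptor for a microglial survival factor (1.69 ± 0.23, adjusted p 0.00158, edgeR), and Cx3cr1, the fractalkine receptor (1.84 ± 0.26, adjusted p 0.00158). Their summed level was 292.7 to 507.6 CPM in control and 553.8 to 2250 CPM in dissociated libraries. No marker was at 0 in control; up to 7 of 18 were at 0 in a dissociated library. The summed microglia-rich lysosomal genes ran from 64.91 to 115.8 CPM in control and from 125.6 to 512.9 CPM after dissociation, and the summed broad genes from 3378 to 4682 and from 3787 to 5881 CPM. The first pair of ranges did not overlap and the second did.

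Set against the summed counts of the microglia markers in the same library, the 5 microglia-rich genes had overlapping ranges in the treatments. Ctss amounted to 9.48% to 16.43% of the marker sum in control and 9.85% to 17.84% in dissociated libraries. Cd68 amounted to 0.259% to 2.467% and 1.329% to 2.921%, and Ctsc to 1.145% to 3.941% and 0.648% to 5.075%. Ctsz had 6.256% to 9.906% in control and 1.174% to 9.859% after dissociation. Each dissociated library but the shallowest, DG replicate 3, lay below every control for it. Ctsh amounted to 0.553% to 2.358% and 0% to 2.53%. Its median went from 1.376% to 0.235%, but the latter rests on 1 count in CA1 dissociated replicate 3, and 3 dissociated libraries had no Ctsh count. In CA1 dissociated replicate 1 and the dissociated CA3 libraries Ctsh was at 1.113% to 2.53%. Npc2, a broad gene, also overlapped, at 4.669% to 11.79% and 3.164% to 18.31%. Psap and Ctsb, abundant broad genes, were lower against the markers. Psap was at 201.2% to 466.5% in control and 63.22% to 208.4% after dissociation, and Ctsb at 91.32% to 188.8% and 23.94% to 59.4%. The marker sum itself rose, so any gene with little change of its own is lower against it. Of further broad genes, Npc1 overlapped, at 8.722% to 15.56% in control and 2.817% to 16.72% after dissociation. Grn was at 7.048% to 19.81% and 1.408% to 10.45%, and Lamp1 at 24.93% to 76.89% and 12.46% to 35.12%. Gaa, Laptm4a and the broad genes not named in this paragraph were not set against the markers. The ranges of Psap met at their ends and those of Ctsb did not overlap. Ctsd lay between, at 44.57% to 89.39% and 26.44% to 46.87%.

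Other cell types also moved. Of 12 oligodendrocyte markers, 8 were called, all higher (median 1.94), and their sum was 621.6 to 3817 CPM in control and 1440 to 12760 CPM after dissociation. The 5 markers of oligodendrocyte precursors were all positive (median 1.46) and 1 was called, with sums of 62.6 to 174.5 and 114.1 to 374.6 CPM. Of 12 astrocyte markers none was called (median 0.53, with 5 higher and 0 lower at an unadjusted p under 0.05), nor any of 10 neuron markers (median -0.15, with 0 higher and 1 lower) or 8 endothelial markers (median 0.41, with 1 higher and 0 lower), all by edgeR. The 6 markers of perivascular macrophages, another cell rich in Cd68, summed to 0 to 3.581 CPM before and 0 to 13.94 CPM after dissociation, with a median of 5 and 6 of them at 0. How far each of these shifts entered the change of a lysosomal gene was not tested.

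**Figure D4:**
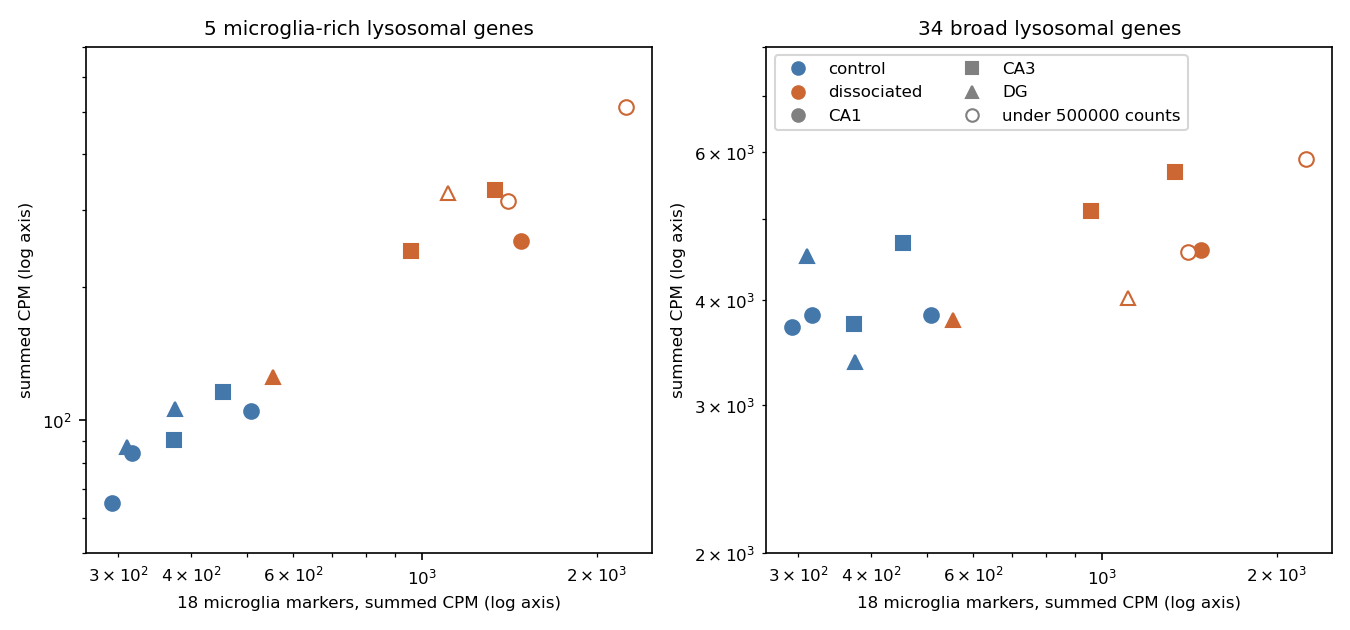
Summed CPM of the 5 microglia-rich (left) and 34 broad (right) lysosomal genes against the summed CPM of 18 microglia markers, 1 point per library, all axes logarithmic; colours mark treatment, shapes mark the labelled region and open points are libraries under 500000 counts. The microglia-rich sum is 64.91 to 115.8 in control and 125.6 to 512.9 after dissociation, while the broad sums of both treatments overlap.

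Within single regions, fewer of the genes passed. In CA1, 1 of 39 was called (Ctss, 2.45 ± 0.41, adjusted p 0.024, edgeR), against 0.191% of all genes, and the call was lost without CA1 control replicate 2 or 3, CA1 dissociated replicate 2 or the library labelled CA1 dissociated replicate 3. The highest adjusted p among these was 0.238. At an unadjusted p under 0.05 in edgeR, 11 of 39 were higher in CA1 and 0 lower, against 11.2% of all genes in either direction. In CA3, 0 of 39 were called, where 0% of all genes were, and 6 had an unadjusted p under 0.05 (4% of all genes): Ctss, Cd68, Ctsd, Lamp1, Npc1 and Npc2, all higher. In DG, 0 of 39 were called against 0.161% of all genes; at an unadjusted p under 0.05, 1 was higher (Npc1) and 1 lower (Naglu, an N-acetylglucosaminidase that acts on heparan sulfate), against 14.1% of all genes in either direction. These genes were picked out after their values were seen.

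The median log2 fold change of the 39 was 0.54 in CA1 and 0.47 in CA3, with 32 positive in each (46.3% and 46.2% of all genes), and -0.17 in DG with 18 positive (38.8% of all genes). In DG, 2 of the genes had no count in either dissociated library. Naglu had 73 counts in DG control and 0 after dissociation. With 3 counts over the pooled DG dissociated libraries as the limit, its bound was 2.19-fold lower. That covers counting error alone and not the spread between libraries, and Naglu was not called within DG (adjusted p 0.251, edgeR). Ctsh had 23 counts in control, a level under the limit of 3 counts over the dissociated libraries, so no fold is given. With Naglu at its bound and Ctsh, which has none, set to no change, the DG median was -0.04.

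The groups of some genes did not overlap within a region. Every dissociated library lay above every control library for 14 of 39 in CA1 (35.9%, against 7.16% of all genes), 18 in CA3 (46.2%, against 15.7%) and 4 in DG (10.3%, against 8.25%). The DG share is near its background. The reverse held for 1, 1 and 5 of 39, against 16%, 18.2% and 32.2% of all genes. Apart from Cd68, 10 genes lay above in 2 regions (4.56% of all genes), and 0 lay below in all 3 (1.34% of all genes).

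The difference between regions in the response was itself tested. The interaction of treatment and region in edgeR called 0 of 39 genes and 0% of all genes; 1 of 39, Naglu, had an unadjusted p under 0.05 (0.0309, adjusted 0.554), as did 1112 of all genes. A difference between DG and the other regions was therefore not detectable for any single lysosomal gene at this depth.

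**Figure D5:**
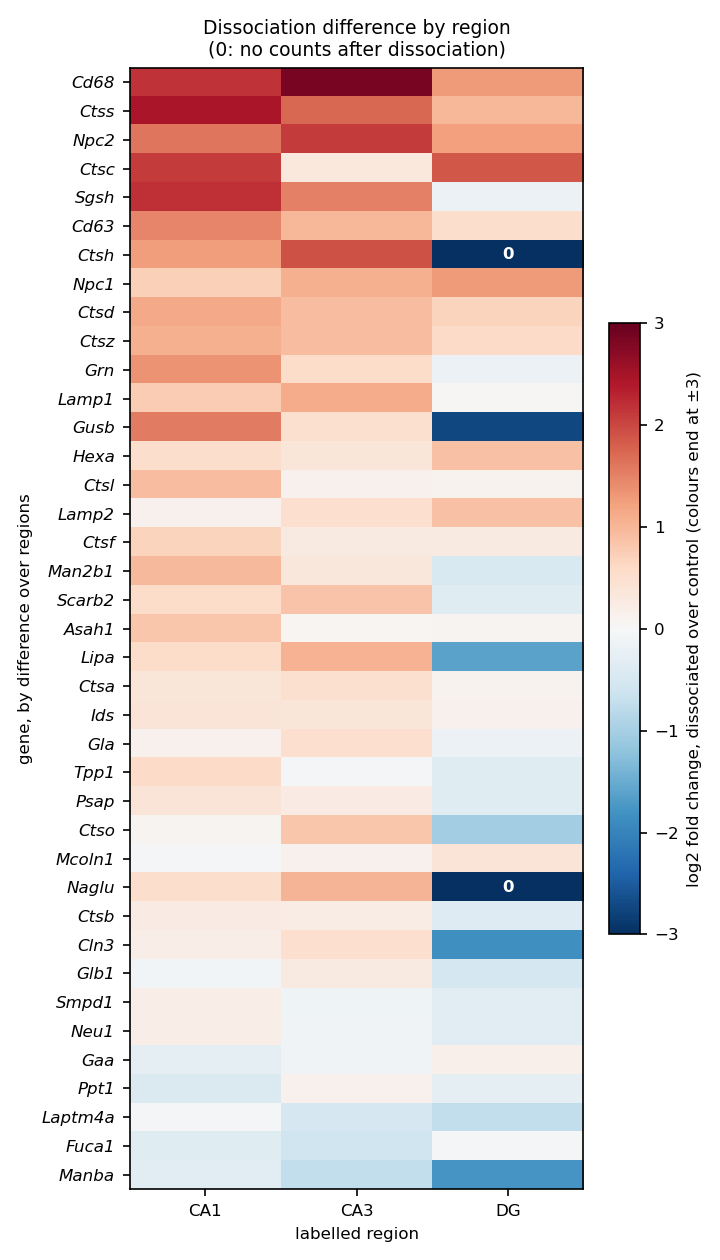
Log2 fold change, dissociated over control, of each of the 39 lysosomal genes in each labelled region, ordered by the difference over all regions; the colour scale ends at 3 in each direction and a 0 marks genes with no counts in dissociated DG (Ctsh and Naglu). CA1 and CA3 are positive for 32 of 39 genes each and DG for 18.

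Between regions, with treatment as a covariate, few lysosomal genes passed the test. CA1 against DG called 1 of 39, which is below the 4.06% of all genes called there. CA3 against DG called 0 of 39 (1.77% of all genes), and CA1 against CA3 called 0 of 39 (0.115% of all genes); at an unadjusted p under 0.05 in edgeR, 5, 1 and 2 of 39 were found in these comparisons, against 15.7%, 12% and 5.37% of all genes.

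The called gene was Gaa (chr11:119267887-119285454, plus strand, GRCm38). Gaa had 534, 562 and 507.2 CPM in CA1 control and 494.8, 574.4 and 250.8 CPM in CA1 dissociated replicates 1 to 3. In DG it had 269 and 181.2 CPM in control and 140.5 and 320.7 CPM after dissociation. In CA3 it had 500.2 CPM in the library labelled control replicate 1 and 411.3 CPM in replicate 4, and 570.3 and 281.7 CPM in the dissociated replicates 1 and 4.

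All CA1 libraries but the one labelled CA1 dissociated replicate 3 exceeded all DG libraries for Gaa. Its log2 fold change of CA1 over DG was 1.04 ± 0.29 (adjusted p 0.0397, edgeR). Without the 3 libraries against their labels, of which that is 1, it was 1.27 with an adjusted p of 0.00505. The call was lost without CA1 control replicate 1, 2 or 3, DG control replicate 3, CA1 dissociated replicate 1 or 2, or DG dissociated replicate 3, with an adjusted p of at most 0.162, and was kept in the other 7 of 14 fits that left out 1 library.

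The sequence before the start of the gene is shown for some of the called genes. These are Ctss and Cd68, which are microglia-rich, Ctsd, which is broad, and Gaa, called between regions. Npc2, the other broad gene called after dissociation, is not shown. For Ctsd a stretch after the GENCODE start of the gene, but before the RefSeq start, is added because it holds a further box. Sequences are from RefSeq (GRCm38.p6), 5′ to 3′ on the strand of the gene. Capitals mark CACGTG, the core of the motif bound by the lysosomal regulator TFEB, with TCACGTG in full, and GAGGAA, the core of the motif of PU.1, a myeloid factor, each searched on both strands.

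Ctss, chr3:95526536-95526785: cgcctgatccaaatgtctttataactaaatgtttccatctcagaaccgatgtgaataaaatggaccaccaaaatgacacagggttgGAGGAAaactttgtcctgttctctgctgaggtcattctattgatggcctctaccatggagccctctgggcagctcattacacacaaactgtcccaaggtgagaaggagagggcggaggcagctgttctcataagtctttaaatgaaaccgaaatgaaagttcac
Cd68, chr11:69666171-69666420: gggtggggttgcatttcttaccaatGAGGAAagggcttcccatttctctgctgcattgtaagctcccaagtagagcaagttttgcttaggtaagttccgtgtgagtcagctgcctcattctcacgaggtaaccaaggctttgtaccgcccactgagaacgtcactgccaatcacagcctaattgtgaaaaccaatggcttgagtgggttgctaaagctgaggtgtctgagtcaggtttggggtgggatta
Ctsd, chr7:142388039-142388077: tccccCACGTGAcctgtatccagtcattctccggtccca
Ctsd, chr7:142387908-142387937, a further box inside the annotated gene: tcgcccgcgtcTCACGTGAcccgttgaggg
Gaa, chr11:119267713-119267886: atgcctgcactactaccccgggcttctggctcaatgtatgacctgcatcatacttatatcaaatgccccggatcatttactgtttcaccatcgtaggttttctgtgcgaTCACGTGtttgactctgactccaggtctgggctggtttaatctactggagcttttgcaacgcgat

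The motif search covered the 250 bases before each start in RefSeq, where 35 of the 39 genes matched, with 38 windows. CACGTG was in 12 of the 38 (31.6%) and in 6.02% of all 32851 windows. TCACGTG, which contains it, was in 10 (26.3%, against 3.13% of all). The genes with CACGTG were Cln3, Ctsa, Ctsd, Ctsf, Ctsl, Gaa, Gla, Glb1, Lamp1, Mcoln1, Naglu and Sgsh. GAGGAA was in 13 windows (34.2%, against 23.3% of all). Of the 4 microglia-rich genes matched, 3 held GAGGAA and 0 held CACGTG. Npc2, called and broad, was neither among the genes with CACGTG nor among those with GAGGAA. The sequences shown above therefore do not stand for all called genes. A match describes these letters only.

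Other genes of the same organelle, not among the 39, were counted by list, in the fit with all 14 libraries only. Of 24 other lysosomal membrane proteins 1 was called, Laptm5, a protein of blood-derived cells and microglia (log2 fold change 1.61 ± 0.35, adjusted p 0.0229, edgeR), with a median of -0.02. None was called among 18 of 19 subunits of the vacuolar ATPase that were tested, the proton pump that acidifies lysosomes; their log2 fold changes ran from -0.38 to 0.33 (median -0.14), with 5 positive and 0 at an unadjusted p under 0.05. None was called among 4 transcription regulators of lysosomal genes (median -0.20, 1 lower at an unadjusted p under 0.05), 11 genes of sorting to lysosomes (-0.16, 2 lower) or 4 cathepsin inhibitors (0.53, 2 higher).

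Lamp2 and Psap are known for alternative transcripts. Lamp2 has alternative last exons, which give proteins with different cytosolic tails; the A form serves chaperone-mediated autophagy. The transcripts Lamp2-001, Lamp2-002 and Lamp2-003, which encode the A, B and C forms, share their first 1109 coding bases, and their last 36 coding bases in GENCODE M21 are shown to let them be told apart.

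Lamp2-001: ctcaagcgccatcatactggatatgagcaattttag
Lamp2-002: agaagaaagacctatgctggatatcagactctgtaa
Lamp2-003: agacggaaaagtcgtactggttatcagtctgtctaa

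Lamp2-003 supplied 32.1% to 62.5% of Lamp2 TPM in control libraries and 0% to 43.4% in dissociated ones, with 0 in 4 of 7. Those 4 libraries had 5, 11, 78 and 94 Lamp2 counts in all, while the 3 others had 18, 188 and 193. These shares rest on how kallisto divides reads between transcripts and were not tested.

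Psap transcripts differ by a short insert after coding base 774, in the part that encodes saposin B. The bases around it are shown with the insert in capitals.

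Psap-001: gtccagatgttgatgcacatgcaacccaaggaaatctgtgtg
Psap-204: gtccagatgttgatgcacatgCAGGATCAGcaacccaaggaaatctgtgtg
Psap-201: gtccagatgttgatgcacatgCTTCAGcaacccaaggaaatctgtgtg

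Psap-204, with 9 added bases, supplied 72.6% to 82.7% of Psap TPM in control libraries and 25.8% to 100% in dissociated ones. In the dissociated libraries over 500000 counts it supplied 70.1% to 82.6%. The values far from control, 25.8%, 41.7% and 100%, were in the 3 shallow libraries.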

How the data were processed

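The submitters' processing notes list kallisto, DESeq2, cutadapt and FastQC but no versions. The genome build and strandedness were not given in the sources used here. Per the file headers, the authors' transcript tables hold kallisto's estimated counts and TPM for 58716 transcripts. The deposited gene table holds estimated counts that the authors had summed by symbol and rounded (each within 0.5 of the transcript sum). Gene TPM was summed over transcripts. Because kallisto apportions reads that fit several transcripts, near-identical genes and isoforms can exchange counts.

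The tests used edgeR 4.0.16 under R 4.3.3 (quasi-likelihood F test, TMM, filterByExpr on the 6 groups with minimum count 10 and total 15), in a model of region and treatment with 10 residual degrees of freedom, and in a model of 6 group means with 8 for single regions and the interaction. Called genes had a Benjamini-Hochberg adjusted p under 0.05 over the 13063 genes tested. Standard errors were derived from the F statistic. The script was tested on simulated data. Alternatives were other scalings, filters, DESeq2 1.42.0, limma 3.58.1 on log2(TPM + 1), a replicate block and left-out libraries; the medians, the fit without the 3 libraries against their markers and the fit without region were added after seeing the data. The 39 genes, their division and the other lists were chosen with earlier results of these data known. Full values were given for microglia-rich genes, called genes and the broad genes with the 3 highest and 3 lowest fold changes; other genes of the lists were named where called. The results of a further list of lysosomal hydrolases are not reported here. Coordinates are those of GENCODE M21 (GRCm38). A count of 0 allows 3 counts, a limit for counting error alone, since no molecular identifiers are named and reads may repeat a molecule. Replicate libraries differed beyond sampling noise (chi-square per degree of freedom 4.98 to 20.1), so none was counted as a duplicate.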

Additional observations from a re-analysis of the deposited data

Results flagged for a closer look

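Single libraries stood apart from the other 6 of their treatment in 5 of 26 tests, by the gap to the nearest library as a share of the range (Dixon's 95% limit). That limit flags about 1 in 20 for draws from 1 normal distribution. Libraries of 3 regions and uneven depth are not such draws, so 5 of 26 cannot be set against that rate. Ctsc was at 17.92 CPM in CA3 control replicate 4 (next 10.2 CPM) and at 88.9 CPM in CA1 dissociated replicate 2 (next 28.1 CPM). Laptm4a was at 225.7 CPM in CA1 dissociated replicate 2 (next 137 CPM). Cd63 was at 46.91 CPM in DG control replicate 2 (next 23.79 CPM) and at 78.04 CPM in DG dissociated replicate 3 (next 52.99 CPM), the latter resting on 5 counts.

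For Ctsh, Ctsb and Naglu every dissociated library lay above the controls in CA3 and had a lower value in DG. For Ctsh and Naglu that value was a count of 0, which at this depth allows levels up to 46.83 CPM in DG replicate 3 and 4.96 CPM in replicate 4, so a lower level is not shown library by library. The edgeR interaction test gave adjusted p-values of 0.618, 0.82 and 0.553, so the difference between regions did not pass the threshold for any of them.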

How the results depend on the processing

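The count of 4 called genes over regions was 9 with DESeq2 (Cd63, Cd68, Ctsc, Ctsd, Ctss, Ctsz, Lamp1, Npc1 and Npc2), 1 with limma on log2(TPM + 1), 0 without the shallow libraries, 1 without the 3 libraries against their region markers and 1 with no term for region. Leaving out 1 library gave 1 to 7. It was 1 without CA1 control 2 or 3, CA3 control 1, CA1 dissociated 2, CA3 dissociated 4 or DG dissociated 3, it was 2 without CA3 control 4 or DG control 3, and 7 without DG dissociated 4. Ctss was called in 14 of these 14 fits. Within CA1 the count of 1 became 2 with no filter on low counts and 2 with DESeq2, 0 with limma, 0 without the shallow libraries, 0 without the 3 libraries against their markers, and 0 to 1 with 1 library left out. For CA1 against DG it became 2 with DESeq2, 0 with limma and 0 to 2 with 1 library left out, and for CA3 against DG it went from 0 to 1 (Gaa) with no filter. The broad median of 0.32 was -0.21 with limma, where the median of all genes was -0.64. Ctsh had -0.69 with limma, and Gaa over regions had 0.092 without the shallow libraries and -0.276 to 0.014 with 1 library left out (0.014 without CA1 dissociated replicate 3). The causes were not tested.

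Over all genes, 95 were called higher and 6 lower, against 411 and 67 with DESeq2, 154 and 6 with RLE scaling, 275 and 70 without the filter, 14 and 0 without the shallow libraries, 7 and 48 with limma, and 216 and 164 with the replicate block. RLE scaling moved the median of all genes from -0.11 to -0.01 and that of the 39 from 0.41 to 0.50. The deviations of same-numbered libraries from their group means had r from -0.199 to 0.051. In CA3 and DG each group has 2 libraries, whose deviations mirror each other, so these r can hardly show or exclude pairs. In CA1 r was -0.002 to 0.028. The numbers were not taken as pairs. With the replicate block the count over regions was 6 (with Cd63 and Lamp1 added to the 4), within CA1 it was 3 (Ctsd, Ctss and Npc2) and for CA1 against DG it was 0. For the treatment difference the block joins same-numbered libraries of a region. DG control replicate 2 and DG dissociated replicate 4 have no partner there and add nothing to that difference, so the rise cannot be read as an effect of pairing. In the shallowest library 30 of 39 genes had under 10 counts, which limits every DG value.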
